A study of Mus musculus with 16 samples.

Results

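The genes described here are 6 major urinary protein genes of the mouse, Mup3, Mup7, Mup12, Mup17, Mup20 and Mup21. They were taken by gene symbol from the deposited table of read counts, where they make up 6 of 25 entries of the Mup family and 6 of 41079 entries in all. Liver RNA was sequenced from 16 mice of the C57BL/6J strain aged 20 to 22 months, with 4 libraries each from male CRE- mice, male LKO mice, female CRE- mice and female LKO mice. All of these groups carried the glucagon receptor gene Gcgr with loxP sites around exons 6 to 12. LKO mice also carried Cre recombinase driven by the albumin promoter, which is active in hepatocytes, so that the deletion was aimed at hepatocytes alone, and CRE- mice carried no Cre. The comparisons ask how loss of the hepatic glucagon receptor bears on the livers of old mice of either sex. The table holds between 33268424 and 56488920 counted reads per library.

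Major urinary proteins are small secreted lipocalins that bind volatile pheromones. They are made mainly in the liver and pass through the blood into urine, where they act as scent signals between mice. In mouse liver many Mup genes are known to be higher in males than in females, under control of the sex-specific pattern of growth hormone release acting through STAT5b.

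Gcgr was counted at 190, 193, 127 and 190 reads per 1000000 counted (CPM, scaled by edgeR's TMM factors) in male CRE- replicates 1 to 4 and at 117, 136, 130 and 160 CPM in male LKO replicates 1 to 4. In female CRE- replicates 1 to 4 it was counted at 162, 208, 201 and 180 CPM, and in female LKO replicates 1 to 4 at 48.8, 132, 119 and 93.6 CPM. The female groups did not overlap, while male CRE- replicate 3 lay below 3 of 4 male LKO libraries. Gcgr was lower in female LKO, by -0.93 on the log2 scale (SE 0.25, adjusted p = 0.0443, edgeR quasi-likelihood F test, Benjamini-Hochberg adjusted over all genes tested). This call held in 3 of 16 fits without a library, and among the others the edgeR adjusted p was 0.136 without female CRE- replicate 2, the highest, and 0.0506 without male LKO replicate 1, while the log2 difference stayed between -1.11 and -0.69. The male difference of -0.37 (SE 0.24) did not pass that test (edgeR adjusted p = 0.671), nor did the interaction of sex and genotype (-0.57, edgeR adjusted p = 0.412). The counts sum all exons of Gcgr, so reads of exons outside the loxP sites are included, and the deleted exons were not measured apart from the others. Xist, transcribed from the inactive X chromosome, and the Y-linked gene Ddx3y placed all 16 libraries with the sex on their label.

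The 12 hepatocyte markers, led by albumin (Alb) in every library, had reads in all 16 libraries. Their summed level was 103449, 133884, 148743 and 138552 CPM in male CRE- replicates 1 to 4 and 96563, 108420, 125441 and 110192 CPM in male LKO replicates 1 to 4. It was 165894, 155318, 162906 and 195132 CPM in female CRE- replicates 1 to 4 and 96308, 141012, 127844 and 151481 CPM in female LKO replicates 1 to 4. None of the 12 markers passed the test in either LKO comparison by edgeR, with unadjusted p under 0.05 for 2 in males and 6 in females. Without male LKO replicate 1 none passed in males, while Serpina1c was called lower in female LKO. In a bulk library, fewer hepatocytes and less Mup RNA per hepatocyte cannot be told apart.

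Male LKO replicate 1 stood apart from the other male libraries in its Mup and sex-biased genes. It was the lowest of 8 male libraries for 6 of 6 members and for 23 of 23 Mup genes tested, against 12.5% of all genes tested. All 25 Mup entries together took 446 CPM in this library, against 19124, 25669 and 21874 CPM in male LKO replicates 2 to 4 and 7601, 6315, 6246 and 8200 CPM in male CRE- replicates 1 to 4. No read was counted for 3 members or for 18 of the 25 entries. It was also the lowest male library for 11 of 18 genes known for higher expression in male liver and the highest for 14 of 20 genes known for higher expression in female liver (70%, against 13.4% of all genes). Among the latter, the sulfotransferase Sult2a1 stood at 116 CPM in this library and at no more than 0.267 CPM in any other male library, and the repressor Cux2 at 60.4 CPM against at most 1.72 CPM. Its Ddx3y level of 58.0 CPM and Xist level of 0.0514 CPM were those of a male. Over all genes it was not the most extreme library. Male CRE- replicate 3 was the lowest male library for 27.9% of genes and the highest for 25.9%, and female LKO replicate 1 the lowest female library for 25% and the highest for 29.3%. What set male LKO replicate 1 apart was not tested, and differences between male LKO and CRE- are given with and without it for the members and for most gene lists.

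The 25 Mup entries lie together on chromosome 4 between bases 59956804 and 62069078 (GRCm39). Mup7, Mup12 and Mup17 belong to the central copies, which are nearly identical, and Mup20, Mup3 and Mup21 to the more diverged copies at the edge of the cluster. Reads that mapped to several places were not counted, so the level of a central copy rests on read pairs that could be placed on it alone. A read in a shared stretch can still be counted where its mate sets the pair apart. The share of single stretches is thus a rough guide to the reads lost. Of all 150-base stretches of the spliced transcript, the length of a read, 100% were found in no other Mup transcript for Mup20, Mup3 and Mup21. The share was 56.7% for Mup17, 32.2% for Mup12 and 26.7% for Mup7, which shared the most stretches with Mup13 (21.2%), Mup15 (58%) and Mup15 (51.7%). Over the other 19 Mup entries it ran from 0.879% for Mup19 to 100%, with a median of 37.6%. The levels of Mup7, Mup12 and Mup17 are therefore uncertain, above all beside those of other genes. Copies elsewhere in the genome were not searched, and a read may also be missed or misplaced where a mouse differs from the reference.

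**Figure D1:**
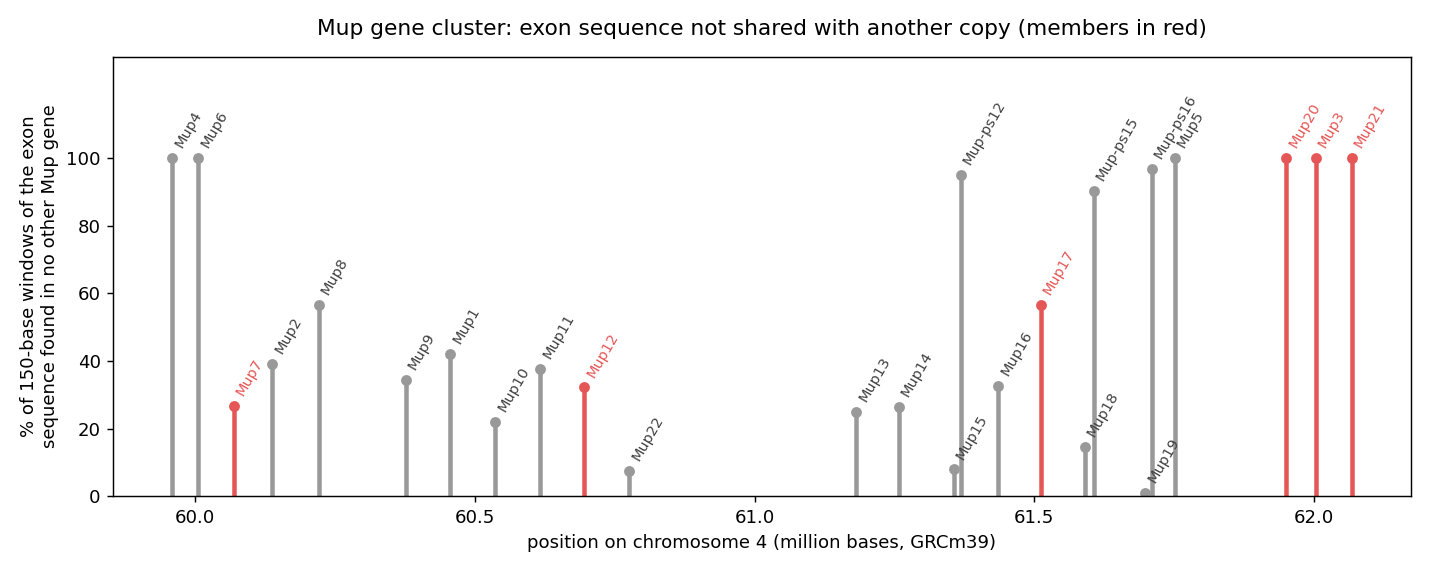
Share of 150-base stretches of each spliced transcript found in no other Mup transcript (percent), drawn at the position of each Mup entry on chromosome 4 (GRCm39, megabases), with the members in red. Mup20, Mup3 and Mup21 at the high end of the cluster reach 100%, and Mup7 stands at 26.7%.

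Promoters are shown so that the members can be set side by side at the sequence level. RefSeq promoter sequences (GRCm38.p6, an older build than that of the counts, 250 bases before to 50 bases after the annotated start) matched 4 of 6 members, Mup3, Mup7, Mup17 and Mup21. Mup12 and Mup20 had no entry. All 4 are on the minus strand of chromosome 4, at chr4:62087268-62087567 for Mup3, chr4:60070426-60070725 for Mup7, chr4:61595783-61596082 for Mup17 and chr4:62150792-62151091 for Mup21. Capitals mark the longest run that all 4 share, AAAACATTCCACAAAGCCT, of 19 bases.
Mup3: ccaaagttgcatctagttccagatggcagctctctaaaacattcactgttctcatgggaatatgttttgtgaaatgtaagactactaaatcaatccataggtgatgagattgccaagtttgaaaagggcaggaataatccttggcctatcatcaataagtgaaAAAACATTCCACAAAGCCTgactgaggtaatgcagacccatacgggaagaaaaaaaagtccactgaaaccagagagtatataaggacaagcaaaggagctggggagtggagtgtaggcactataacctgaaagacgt
Mup21: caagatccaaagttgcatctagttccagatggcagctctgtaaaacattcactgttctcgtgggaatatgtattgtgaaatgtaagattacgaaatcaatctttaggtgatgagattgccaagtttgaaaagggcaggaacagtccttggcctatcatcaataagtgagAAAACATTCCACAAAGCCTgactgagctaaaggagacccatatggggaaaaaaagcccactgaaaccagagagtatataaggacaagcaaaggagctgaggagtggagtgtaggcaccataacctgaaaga
Mup17: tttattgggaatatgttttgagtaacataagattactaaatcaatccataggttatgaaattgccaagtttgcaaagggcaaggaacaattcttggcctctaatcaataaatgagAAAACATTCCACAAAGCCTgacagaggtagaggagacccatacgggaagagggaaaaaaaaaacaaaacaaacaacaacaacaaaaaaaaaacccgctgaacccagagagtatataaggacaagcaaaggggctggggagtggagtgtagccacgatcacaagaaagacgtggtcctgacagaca
Mup7: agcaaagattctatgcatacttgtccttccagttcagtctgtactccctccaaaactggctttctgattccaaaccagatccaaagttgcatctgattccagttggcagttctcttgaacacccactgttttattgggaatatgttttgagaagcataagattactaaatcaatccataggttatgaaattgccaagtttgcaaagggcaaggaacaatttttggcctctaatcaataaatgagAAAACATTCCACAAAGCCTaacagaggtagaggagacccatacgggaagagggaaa

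The shared run begins at base 164 of the Mup3 sequence, 170 of Mup21, 116 of Mup17 and 245 of Mup7. The STAT5 consensus TTCNNNGAA, searched on both strands, was found in 0 of these 4 windows and in 8.3% of all 32851 RefSeq promoters of the same length. The TATA-box sequence TATATAA, also searched on both strands, was found in 3 of 4, Mup3, Mup17 and Mup21, and in 3.24% of all promoters. A match or its absence describes these letters in these windows only.

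Levels are given as CPM per kilobase of exon (mean ± SD, n = 4), and the central copies, whose shared reads were not counted, are not ranked against the diverged ones. In male CRE- livers Mup3 (3592 ± 570) and Mup20 (3237 ± 994) did not differ beyond their spread and stood above Mup21 (91.4 ± 25.2). The central copies, with wide spreads that overlapped, were at 80.3 ± 83.4 (Mup7), 30.2 ± 36.6 (Mup17) and 9.66 ± 9.35 (Mup12). In male LKO livers the spreads of Mup20 (10142 ± 7465) and Mup3 (5502 ± 3558), which include replicate 1, overlapped. Within each male LKO library Mup20 lay above Mup3, in replicate 1 by little (229 against 213). Mup21 was at 220 ± 142, and the central copies were at 295 ± 276 (Mup7), 95.4 ± 110 (Mup17) and 9.14 ± 8.22 (Mup12). In female CRE- livers Mup3 (848 ± 443) stood above Mup20 (42.0 ± 18.3) and Mup21 (9.06 ± 2.72), and the central copies were at 29.2 ± 17.2 (Mup17), 1.21 ± 0.850 (Mup12) and 0.0316 ± 0.0213 (Mup7). In female LKO livers Mup3 (348 ± 360) and Mup20 (87.1 ± 82.9) had overlapping spreads, Mup21 stood at 5.48 ± 5.43, Mup17 at 0.303 ± 0.412 and Mup12 at 0.0450 ± 0.0386, and Mup7 had no read. Mup20 and Mup3 together held between 87.2% and 97.4% of the reads counted on all Mup entries in male libraries. As shared reads of the central copies were not counted, this share may be too high and does not rank the copies.

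In males, 0 of 6 members passed the edgeR quasi-likelihood test (adjusted p under 0.05) between LKO and CRE-, against 76 of 16742 genes tested (0.454%). At an unadjusted p under 0.05 the count of members was also 0, against 1595 genes, and it was 0 by DESeq2 and 0 by limma-voom at the adjusted threshold. Without male LKO replicate 1 the adjusted count stayed 0, against 43 genes in all, and 3 members had an unadjusted p under 0.05 (Mup20, 0.00496, Mup21, 0.00878, and Mup7, 0.0101, all by edgeR), against 1395 of 17070 genes. The groups overlapped for all 6 members, while 6.49% of all genes did not overlap. Yet 3 of 4 male LKO libraries lay above every male CRE- library for Mup20, Mup3 and Mup21, and replicate 1 below every one. The median log2 difference of the members was 1.46, or 1.84 without replicate 1, against -0.01 and -0.03 over all genes. The count over all genes also fell without any other male library, to between 26 without CRE- replicate 3 and 49 without CRE- replicate 4.

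Mup20 encodes darcin, the male pheromone that attracts females. It was counted at 3690, 1840, 3432 and 4165 CPM in male CRE- replicates 1 to 4 and at 233, 10149, 18454 and 12301 CPM in male LKO replicates 1 to 4. Replicates 2 to 4 of male LKO were thus above every control and replicate 1 below every control. The log2 difference was 1.65 (SE 0.84) with all libraries and 2.04 (SE 0.62) without replicate 1, where the mean over the remaining 3 male LKO libraries was 13635 ± 4310 CPM (SD). Neither passed (adjusted p = 0.568 and 0.290, edgeR quasi-likelihood F test, Benjamini-Hochberg adjusted).

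Mup3, a diverged copy with high liver expression, stood at 3613, 3697, 2585 and 3667 CPM in male CRE- replicates 1 to 4 and at 201, 6525, 6549 and 7498 CPM in male LKO replicates 1 to 4. Mup21, the copy at the far end of the cluster, stood at 72.4, 52.2, 57.0 and 94.4 CPM in the controls and at 6.56, 201, 231 and 225 CPM in male LKO. Both showed the pattern of Mup20, with male LKO replicates 2 to 4 close together and above all controls. The log2 difference of Mup3 was 0.62 (SE 0.98), or 1.0 (SE 0.89) without replicate 1, and the adjusted p was 0.870 and 0.772 (edgeR quasi-likelihood F test, Benjamini-Hochberg adjusted). It was 0.37 without male LKO replicate 4. The log2 difference of Mup21 was 1.27 (SE 0.75), or 1.65 (SE 0.55) without replicate 1, with adjusted p of 0.627 and 0.373 in the same edgeR test.

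The central copies varied more among the male controls. Mup7 stood at 33.5, 204, 9.23 and 87.0 CPM in male CRE- replicates 1 to 4 and at 0, 614, 135 and 478 CPM in male LKO. Mup17 stood at 7.97, 87.3, 13.7 and 15.1 CPM in male CRE- and at 0, 237, 12.1 and 143 CPM in male LKO. Mup12 stood at 4.14, 25.3, 4.24 and 8.02 CPM in male CRE- and at 0, 17.4, 4.75 and 17.3 CPM in male LKO. Male CRE- replicate 2 was the highest control for these copies, and male LKO replicates 2 and 4 were the highest LKO libraries. The log2 differences of Mup7 (1.88, SE 1.28), Mup17 (1.66, SE 1.26) and Mup12 (-0.08, SE 1.01) became 2.28, 2.07 and 0.33 without male LKO replicate 1, and none passed the edgeR test either way. The sign for Mup12 also turned without male CRE- replicate 2 (0.85) and without male LKO replicate 3 (0.15), so no direction is given for it. Leaving out that control also raised Mup17 to 3.0 and Mup7 to 2.83. Once male LKO replicate 2 was left out, Mup17 dropped to 0.73 and Mup7 to 1.29.

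**Figure D2:**
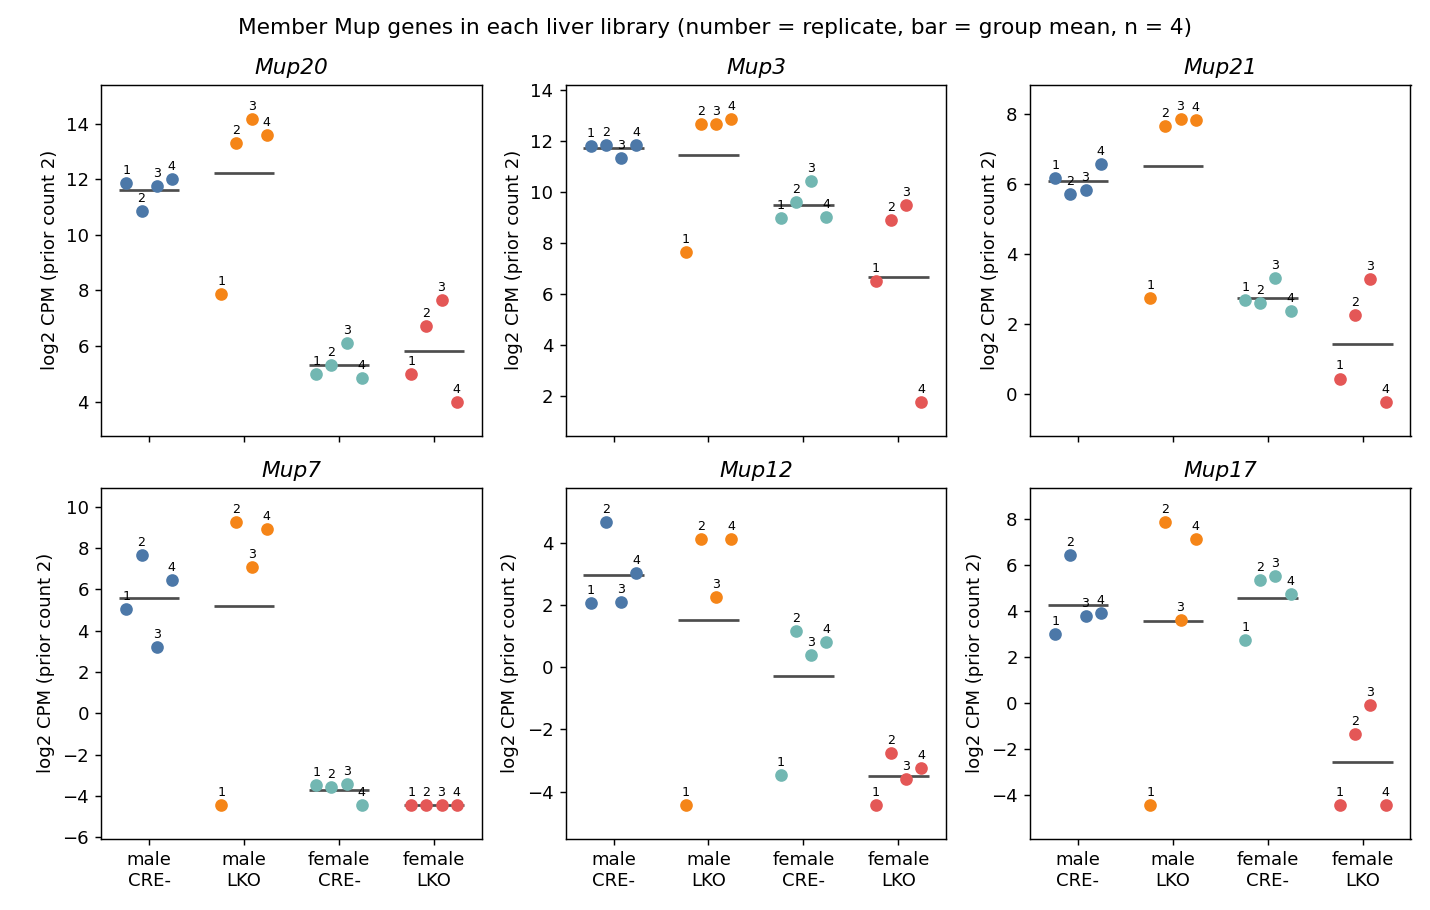
Log2 CPM (prior count 2) of each member in every library, by group, with each point a library numbered by its replicate and the bar the group mean of log2 CPM. For Mup20, male LKO replicates 2 to 4 lie between 13.31 and 14.17 (10149 and 18454 CPM) and replicate 1 at 7.86 (233 CPM).

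In females, 1 of 6 members passed the test between LKO and CRE-, Mup17, which fell. Over all genes 710 of 16742 passed (4.24%), 360 of them lower (2.15%), and the 710 ran from 87 without female CRE- replicate 2 to 1310 without female LKO replicate 2. The groups did not overlap for 1 member, again Mup17, against 11.6% of all genes. The median log2 difference of the members was -2.47 as fitted, against 0.04 over all genes. It was -1.12 with Mup7 set against a floor of 3 reads over the LKO group. Mup20 had a positive difference and the other 5 members a negative one.

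Mup17 was counted with 298, 2078, 1935 and 997 reads in female CRE- replicates 1 to 4 (6.61, 40.4, 46.3 and 26.6 CPM) and with 0, 14, 49 and 0 reads in female LKO replicates 1 to 4. Every LKO library lay below every control, and the highest LKO library, replicate 3, reached 0.896 CPM. The log2 difference was -6.45 (SE 1.65, adjusted p = 0.0397, edgeR quasi-likelihood F test, Benjamini-Hochberg adjusted). The call was lost in 7 of 8 fits that left out a single female library, with edgeR adjusted p of 0.0996, 0.0906 and 0.0743 without CRE- replicates 2, 3 and 4 and of 0.104, 0.0521, 0.0519 and 0.0761 without LKO replicates 1 to 4. It was also lost without male CRE- replicate 1 (edgeR adjusted p = 0.0507) and male LKO replicate 4 (0.0546), which are fitted jointly with the females, and by limma-voom with sample weights (adjusted p = 0.547). DESeq2 gave an adjusted p of 0.00452. The log2 difference stayed between -7.92 and -6.02 in the fits without a female library.

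Mup12, another central copy, had 2, 112, 53 and 64 reads in female CRE- replicates 1 to 4 and 0, 4, 2 and 2 reads in female LKO replicates 1 to 4. CRE- replicate 1 lay within the range of the LKO libraries, and the other controls lay above it. Over the groups, 231 reads stood against 8, a ratio of 27.8 after scaling (95% interval 14.1 to 64.4). The interval covers counting error only, treats both mates of a pair as separate counts and may be too narrow. The log2 difference of -4.69 (SE 1.49) missed the threshold (adjusted p = 0.0797, edgeR quasi-likelihood F test, Benjamini-Hochberg adjusted) and passed without male LKO replicate 1 (0.0258) and by DESeq2 (0.0156). Mup7 had 2, 2, 2 and 0 reads in female CRE- and no read in any female LKO library. Against a floor of 3 reads over the LKO group the controls were 1.93-fold higher. Both mates of a pair were counted, so this is not a firm lower bound.

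Among the diverged copies, Mup3 stood at 501, 787, 1397 and 516 CPM in female CRE- replicates 1 to 4 and at 92.7, 486, 730.0 and 3.41 CPM in female LKO. Mup20 stood at 32.1, 39.8, 69.6 and 28.9 CPM in female CRE- and at 31.5, 106, 199.8 and 15.9 CPM in female LKO. Mup21 stood at 6.41, 6.00, 9.82 and 5.13 CPM in female CRE- and at 1.31, 4.71, 9.71 and 0.810 CPM in female LKO. Female LKO replicates 1 and 4 were the lowest libraries of their group for all 3, replicate 3 the highest, and the groups overlapped. The log2 differences were -1.29 for Mup3 (SE 0.99), 1.05 for Mup20 (SE 0.83) and -0.71 for Mup21 (SE 0.76), with adjusted p of 0.498, 0.511 and 0.642 (edgeR quasi-likelihood F test, Benjamini-Hochberg adjusted). These sizes hung on single LKO libraries. Without replicate 3 they were -2.05, 0.26 and -1.58, without replicate 4 Mup3 was at -0.85 and Mup21 at -0.35, and without replicate 1 Mup21 was at -0.39. Mup20 and Mup3 together held 68.9% to 84.8% of the reads counted on all Mup entries in female CRE- libraries and 92.5% to 98.0% in female LKO libraries. These shares, too, leave out the shared reads of the central copies and may be too high.

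Markers of other cells moved in the same comparison. Of 10 Kupffer cell and macrophage markers, Adgre1 (2.15) and Cd14 (2.68, both log2) rose in female LKO, with a list median of 1.45. By edgeR the unadjusted p was under 0.05 for all 10, as for all 5 neutrophil markers tested and all 5 proliferation genes. Over all genes it was under 0.05 for 3584 of 16742. None of the 10 was at 0 in any library, and their summed level was 889, 650, 720 and 1225 CPM in female CRE- replicates 1 to 4 and 4046, 1188, 2535 and 1632 CPM in female LKO, with Cd5l, Clec4f or Lyz2 as the most abundant gene. Of 5 neutrophil markers tested, Retnlg (2.86) and Mpo (5.23) rose, with a median of 3.17. The summed level of the neutrophil list, led by S100a9, was 27.4, 14.6, 11.8 and 14.7 CPM in female CRE- replicates 1 to 4 and 93.5, 31.1, 53.0 and 522 CPM in female LKO, and 1 of its 6 genes had no read in female CRE- replicates 1, 3 and 4. Of 5 proliferation genes, 4 rose (Top2a, Cdk1, Ccnb1 and Birc5, median 1.72), and their summed level was 9.60, 7.96, 4.60 and 17.3 CPM in female CRE- and 76.2, 14.9, 30.2 and 31.6 CPM in female LKO, led by Mki67 or Top2a with none at 0. Female LKO replicate 1 was the lowest female library for 9 of 12 hepatocyte markers, while female LKO replicate 4, with the lowest Mup sum, was the lowest for 0 and the highest for 3. Of the calls on these markers, Adgre1, Cd14, Retnlg, Mpo, Top2a, Cdk1, Ccnb1 and Birc5 held in 6, 6, 10, 11, 7, 12, 12 and 12 of 16 fits without a library and were lost without female CRE- replicate 2, among others (edgeR adjusted p = 0.139, 0.134, 0.115, 0.114, 0.136, 0.0988, 0.0938 and 0.0708). Without female LKO replicate 1 the values for Adgre1 and Top2a fell to 1.21 and 1.76, and without female LKO replicate 4 those for Cd14, Retnlg and Mpo fell to 1.80, 2.04 and 4.2. The part of these markers in the Mup differences was not tested.

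The interaction asks whether the LKO difference itself differed between females and males. It was called for 0 of 6 members by edgeR, as for 0 of 16742 genes (0%), with unadjusted p under 0.05 for 2 members and 2672 genes. DESeq2 called 1 member (and 372 genes) and limma-voom 0 (and 29 genes). For Mup17 the interaction was -8.11 on the log2 scale (SE 2.06), with an adjusted p of 0.148 (edgeR quasi-likelihood F test, Benjamini-Hochberg adjusted), 0.0503 in that test without male LKO replicate 1, and 0.0390 by DESeq2. For Mup12 it was -4.61 (SE 1.82, edgeR adjusted p = 0.253). The values for Mup21 (-1.98), Mup3 (-1.90) and Mup20 (-0.60) did not pass either, and that for Mup20 ran from -1.37 without female LKO replicate 3 to -0.15 without male LKO replicate 3. Over 23 Mup entries the 0 calls became 6 without male LKO replicate 1, all of them other copies. The female call on Mup17 is thus not shown to differ from the male result by edgeR.

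Summed over all 25 Mup entries, the level was 629, 1201, 1907 and 775 CPM in female CRE- replicates 1 to 4 and 127, 611, 965 and 20.9 CPM in female LKO replicates 1 to 4. The members alone accounted for 547, 875, 1524 and 579 CPM in the female controls and for 126, 597, 940 and 20.2 CPM in female LKO. For the sum over all entries, female LKO replicates 1, 2 and 4 lay below every female control, replicate 2 by little, and replicate 3 lay among the controls. For the members alone, replicates 2 and 3 lay among the controls. These sums leave out reads shared between copies and were not tested.

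**Figure D3:**
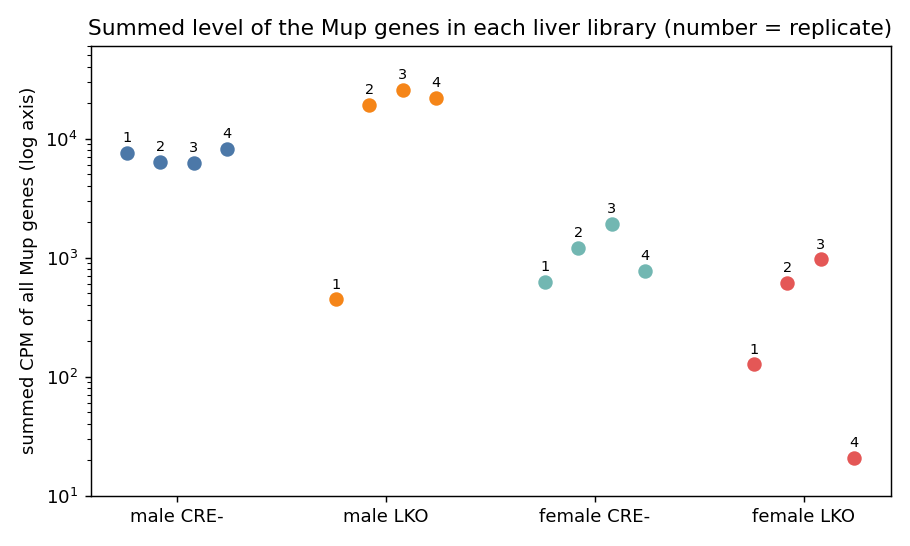
Summed CPM of all 25 Mup entries in every library, by group, on a log axis, with each point a library. Male LKO replicate 1 stands at 446 CPM below the male controls at 6246 to 8200 CPM, and female LKO libraries run from 20.9 to 965 CPM.

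Between control mice of different sex, 2 of 6 members fell from male CRE- to female CRE-, Mup20 and Mup7. Over all genes 154 of 16742 passed (0.92%), 85 of them lower in females (0.508%), and the 154 ran from 68 without male CRE- replicate 1 to 213 without female LKO replicate 1. The groups did not overlap for 5 of 6 members, all but Mup17, against 7.54% of all genes, and the median log2 difference of the members was -3.17 against -0.01. Mup20 stood at -6.27 (SE 1.03, adjusted p = 0.00553, edgeR quasi-likelihood F test, Benjamini-Hochberg adjusted) and was called in 16 of 16 fits without a library. Mup7, with 15030 reads over the male controls and 6 over the female controls, was 2484-fold lower in females (95% counting interval 1141 to 6768, edgeR adjusted p = 0.0279). Its log2 difference of -11.14 became -10.19 without male CRE- replicate 2, which held 9156 of those reads. The interval treats both mates of a pair as separate counts and may be too narrow.

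The call on Mup7 was lost without male CRE- replicate 1 and without any of the female CRE- libraries, where edgeR's Benjamini-Hochberg adjusted p lay at 0.0569 without the former and at 0.0941, 0.112, 0.0872 and 0.119 without female CRE- replicates 1 to 4. Mup21 (-3.33, SE 0.81) missed the threshold of that test with all libraries (adjusted p = 0.0665 by edgeR) and passed without male LKO replicate 1 (0.00514), female LKO replicate 1 (0.0479), 3 (0.0499) or 4 (0.0430), without the filter on low counts (0.0339), by DESeq2 (0.00412) and by limma-voom (0.0493), which did not call Mup7 (0.560). The log2 differences of Mup12 (-3.00, SE 1.11) and Mup3 (-2.08, SE 1.02) did not pass (edgeR adjusted p = 0.266 and 0.413). That of Mup12 was -2.07 without male CRE- replicate 2. Mup17 did not differ beyond its spread (-0.05, SE 1.23), and its sign turned in some fits.

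Between LKO mice of different sex, 5 of 6 members fell from male LKO to female LKO, all but Mup3. Over all genes 189 passed (1.13%), 103 of them lower in females (0.615%), and the 189 ran from 49 without male LKO replicate 2 to 684 without female LKO replicate 2. The groups overlapped for all members but Mup20, through male LKO replicate 1, and 8% of all genes did not overlap. The median log2 difference of the members was -7.24, against 0.01 over all genes, and this comparison shares its libraries with those above. Without male LKO replicate 1, 6 of 6 members were called, Mup3 among them, and 405 of 17070 genes, 198 of them lower. By limma-voom 3 of 6 were called, Mup20, Mup21 and Mup3, and Mup7, Mup12 and Mup17 were not (adjusted p = 0.562, 0.486 and 0.558 by that test).

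Mup20 stood at -6.86 (SE 1.06) and Mup21 at -5.31 (SE 0.89), with adjusted p of 0.00485 and 0.00781 (edgeR quasi-likelihood F test, Benjamini-Hochberg adjusted). Mup7 had 52571 reads over the male LKO libraries and none over the female. It was 18047-fold lower in females against a floor of 3 reads over the group (edgeR adjusted p = 0.0125). As both mates of a pair were counted, that fold is not a firm bound. Mup12 was 215-fold lower by summed reads, 1668 against 8 (95% counting interval 109 to 497, edgeR adjusted p = 0.0245). This interval, too, treats mates as separate counts and may be too narrow. Mup17 stood at -8.16 (SE 1.75, edgeR adjusted p = 0.0328) and Mup3 at -3.98 (SE 1.10, edgeR adjusted p = 0.0861, or 0.0320 without male LKO replicate 1, and 0.00639 by DESeq2). Of these, Mup12 lost its call without male LKO replicate 2 (edgeR adjusted p = 0.0795) or 4 (0.0725) and without female LKO replicate 1 (0.0646), 3 (0.0538) or 4 (0.0762). Mup17 lost its call without male LKO replicate 2 (edgeR adjusted p = 0.109) or 4 (0.0943) and without female LKO replicate 1 (0.0814) or 4 (0.0881), and the member count then fell to 3. Without female LKO replicate 3 the log2 differences of Mup20, Mup21, Mup17 and Mup3 were -7.66, -6.18, -9.62 and -4.75. That of Mup17 was -7.22 without male LKO replicate 2.

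The rest of the family gives the setting for the members. Of 19 other Mup entries 17 were tested, and Mup4 and Mup6, with at most 2 and 20 reads in a library, were not. In males 0 of 17 passed the edgeR test between LKO and CRE-, with 2 at an unadjusted p under 0.05 (Mup11 and Mup9), 0 by DESeq2 and 0 by limma-voom, and their median log2 difference was 1.01, or 1.41 without male LKO replicate 1, when 9 had an unadjusted p under 0.05. Mup11 had the largest difference (4.89, SE 1.34, adjusted p = 0.153, edgeR quasi-likelihood F test, Benjamini-Hochberg adjusted) and was called without male LKO replicate 1 (5.29, adjusted p = 0.00781 in the same edgeR test). The pseudogene Mup-ps16 was the only Mup entry of 23 whose male groups did not overlap, lower in LKO (-1.51, not called).

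In females 8 of 17 other Mup entries fell in LKO, the genes Mup2 (-6.13), Mup15 (-7.07), Mup16 (-6.08), Mup18 (-5.52) and Mup22 (-4.61) and the pseudogenes Mup-ps12 (-3.40), Mup-ps15 (-5.64) and Mup-ps16 (-4.60). Their edgeR adjusted p ran from 0.0250 (Mup16) to 0.0368 (Mup22). Their summed reads in female LKO ran from 2 (Mup2, against 181 in CRE-) to 1114 (Mup-ps16, against 24160). The share of stretches in no other copy ran from 7.42% (Mup22) to 96.8% (Mup-ps16). With Mup17, 9 of 23 Mup entries were called, against 4.24% of all genes, and no Mup entry was called higher. The female groups did not overlap for 14 of 23, against 11.6% of all genes. As copies share sequence, these may not be separate observations. The median over 16 of the others was -4.39, leaving out Mup14, which had at most 2 reads in any female library. The 9 calls became 0 without any of female CRE- replicates 2, 3 and 4 or female LKO replicates 1 and 4, and 15 without male LKO replicate 1. Once female LKO replicate 3 was left out the values for Mup15, Mup16, Mup18, Mup22, Mup-ps15 and Mup-ps16 became -8.83, -9.03, -8.87, -6.55, -8.36 and -5.94. DESeq2 called 15 and limma-voom 2. From male to female CRE-, 1 of 17 fell (Mup14), with a median of -0.74, and from male to female LKO 12 of 17 fell, with a median of -6.69, while limma-voom called 0 of 17 in either. With the members, the 3 calls between CRE- sexes became 1 without male CRE- replicate 1 or any female CRE- library and 5 without male LKO replicate 1, and the 17 calls between LKO sexes became 6 without male LKO replicates 2 or 4 or female LKO replicates 1 or 4 and 22 without male LKO replicate 1.

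Growth hormone acts on the liver through its receptor, the kinase JAK2 and STAT5. Of 8 receptor and signal transducer genes, 0 passed between male LKO and CRE- (median -0.26, or -0.22 without male LKO replicate 1), and in females the growth hormone receptor Ghr (-1.24) and the prolactin receptor Prlr (-1.17) fell and the phosphatase Ptpn1 (0.98) rose. Ghr stood at 193 CPM in male LKO replicate 1 against 376 to 538 CPM in the other male libraries. Of 4 feedback inhibitors of the SOCS family 0 passed in either sex (edgeR, unadjusted p under 0.05 for 2 in males and 1 in females), with medians of -0.45 (-0.72 without male LKO replicate 1) and 0.49. Of 5 genes of the circulating IGF system 0 passed in males (4 at an unadjusted p under 0.05, median -0.13, or -0.01 without that library), and in females Igfals (-1.42) fell and Igfbp1 (3.04) rose (median 0.34). Of these calls Igfals held in all 16 fits without a library, and Ghr, Prlr, Ptpn1 and Igfbp1 held in 13, 14, 3 and 12 and were lost without female CRE- replicate 2, among others (edgeR adjusted p = 0.0666, 0.0640, 0.156 and 0.0903). The value for Igfbp1 fell to 1.62 without female LKO replicate 4 and that for Ptpn1 to 0.64 without female LKO replicate 1.

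Esr1, the estrogen receptor, was the only gene of 6 sex-biased or sex-steroid-related factors to pass between LKO and CRE-, and it fell in LKO in males (-1.33, SE 0.26) and in females (-1.32, SE 0.26), with adjusted p of 0.0360 and 0.0173 (edgeR quasi-likelihood F test, Benjamini-Hochberg adjusted). The male call held in 9 of 16 fits without a library and was lost without male CRE- replicates 1, 2 or 3 (edgeR adjusted p = 0.0724, 0.0639 and 0.0932), male LKO replicates 2, 3 or 4 (0.0759, 0.0967 and 0.0948) or female CRE- replicate 2 (0.0501), and the female call held in 15 and was lost without female CRE- replicate 2 (0.0627). Of 11 other lipocalins tested 0 passed in males (median 0.05, or -0.05 without male LKO replicate 1) and C8g (-1.48) fell in females (median -0.29). The edgeR unadjusted p was under 0.05 for 6 of them in males and 4 in females, against 1595 and 3584 of 16742 genes. The call on C8g held in 11 of 16 such fits and was lost without female CRE- replicate 2, among others (edgeR adjusted p = 0.0874).

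Beside the members, other sex-biased genes were read in the same fits. Of 18 male-biased genes tested, 0 passed between male LKO and CRE- (median 0.21). Without male LKO replicate 1 the median was 0.50 and Cyp7b1 (1.22) and Hsd3b5 (4.49) were called higher in LKO (edgeR adjusted p = 0.0349 and 0.0126). In females Nudt7 (-1.69) fell and Gstp2 (1.57) rose (median 0.77). Of 20 female-biased genes 0 passed in males, and their median of 0.72 turned to -0.39 without male LKO replicate 1. In females 6 fell, Cyp3a41a, Cyp3a41b, Cyp3a44, Cyp3a16, A1bg and Prlr (median -1.41). Without a library, Cyp3a41b and Cyp3a44 kept these calls in all 16 fits. Cyp3a41a, Cyp3a16, A1bg, Nudt7 and Gstp2 kept them in 12, 11, 10, 3 and 4 fits and, like Prlr, lost them without female CRE- replicate 2, among others (edgeR adjusted p = 0.0868, 0.0830, 0.0834, 0.104 and 0.142). From male to female CRE- 9 male-biased genes fell (median -3.91) and 12 female-biased genes rose (median 5.65), and from male to female LKO 10 fell (median -3.32) and 6 rose (median 2.38), or 12 (-3.70) and 12 (3.74) without male LKO replicate 1.

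After subtraction of each group's mean log2 CPM, each member's Pearson r with the mean of the other members over the 16 libraries ran from 0.735 for Mup3 to 0.946 for Mup17. Without the 2 libraries farthest from the centre, male LKO replicates 1 and 2, and with group means taken anew, it was 0.670 for Mup3, 0.254 for Mup7, 0.355 for Mup12, 0.843 for Mup17, 0.608 for Mup20 and 0.722 for Mup21. Of the other Mup entries tested, r with the mean of the members ran from 0.730 for Mup-ps16 to 0.981 for Mup15. Taken without those 2 libraries and with new group means, it ran from 0.466 for Mup14 to 0.95 for Mup-ps12. Among the genes tested outside the Mup family, those most like the mean of the members were Nudt7 (r = 0.963, Spearman's rho = 0.935), Slc15a5 (r = 0.948, rho = 0.862), the male-biased fatty acid hydroxylase Cyp4a12a (r = 0.944, rho = 0.879), the deiodinase Dio1 (r = 0.933, rho = 0.829) and Ces2e (r = 0.933, rho = 0.909). Without those 2 libraries and with new group means their r was 0.878, 0.836, 0.700, 0.612 and 0.867. Those most unlike were Slco1a4 (r = -0.890, rho = -0.638), Sytl5 (r = -0.875, rho = -0.788), Dqx1 (r = -0.863, rho = -0.824), Akr1b7 (r = -0.859, rho = -0.712) and 9930014A18Rik (r = -0.831, rho = -0.612), with r of -0.217, -0.548, -0.736, -0.441 and -0.553 when treated alike. These genes were picked from all those tested outside the family by the size of r, so the values describe these libraries. Nudt7 stood at 45.7 CPM in male LKO replicate 1 against 201 to 433 CPM in the other male libraries.

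Among entries that are not Mup genes but lie within the cluster, Gm21286 fell in female LKO (-4.35, at most 32 reads in a library, and not without female CRE- replicate 2, edgeR adjusted p = 0.0962), Gm12909 did not pass (-1.39) and LOC118567368 had too few reads to be tested. The nearest genes tested outside the cluster, Inip and Snx30 on the low side and Zfp37 and Slc31a2 on the high side, passed in neither LKO comparison by edgeR, with female log2 differences of 0.18, 0.72, 0.06 and 0.07 and male differences of 0.03, -0.26, 0.38 and 0.18.

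In males the markers of other cells gave 0 calls for 10 Kupffer cell and macrophage markers (median 0.03), 5 neutrophil markers (-2.23) and 5 proliferation genes (-0.10), and 0 without male LKO replicate 1 (-0.30, -2.66 over 6 markers, and -0.21). By edgeR the unadjusted p was under 0.05 for 4 of the 5 neutrophil markers and 0 of the other 2 lists, against 1595 of 16742 genes. Without male LKO replicate 1 it was so for 5 of 6 neutrophil markers, against 1395 of 17070 genes. Further lists gave 0 calls by edgeR in males and in females: 8 T and NK cell markers (medians -0.07 and 0.48), 6 B and plasma cell markers (0.08 and 0.59), 8 endothelial markers (0.33 and -0.11), 8 stellate cell and fibroblast markers (-0.57 and 0.29), 6 cholangiocyte markers (0.50 and 0.24) and the 2 pancreatic acinar markers tested (-1.97 and -3.60). Without male LKO replicate 1 they still gave 0 calls in males, with medians of -0.44, -0.04, 0.21, -0.89, 0.42 and, over 6 acinar markers then tested, -5.0. Pancreatic acinar genes summed to 170 CPM in male CRE- replicate 2 and 663 CPM in female CRE- replicate 2, led by Cela2a, and to at most 28.8 CPM in every other library. Salivary and lacrimal glands also express Mup genes, and of 7 markers of these glands 6 had no read in any library. The seventh, the amylase Amy1, which liver also expresses, fell in female LKO (-0.90) and did not pass in males (-0.03), and it lost the female call without female CRE- replicate 2, among others (edgeR adjusted p = 0.0846).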

How the data were processed

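Poly-A RNA of 16 mouse livers was sequenced as 150-base read pairs. Per the labels and the study's methods, the authors aligned reads with STAR 2.7.1a to GRCm39 and counted them per gene with featureCounts (Subread 2.0.6, reverse-stranded, without the option for reads with several alignments), and deposited raw counts, used here as given. Multi-mapping reads were therefore not counted, and each mate of a pair counts as a read. Symbols were matched to the deposited table exactly.

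Differences were tested with edgeR 4.0.16 (R 4.3.3): TMM scaling, filterByExpr with a minimum count of 10, a quasi-likelihood fit with all 4 groups, and Benjamini-Hochberg adjustment over 16742 genes at a threshold of 0.05. The SE of a log2 difference was its size divided by the square root of F. Levels are CPM on TMM-scaled library sizes, and log2 CPM used a prior count of 2. Alternatives were DESeq2 1.42.0, limma-voom (limma 3.58.1) with sample weights, RLE factors, no filter, scaling without Mup genes, each sex alone, a replicate block and each library left out in turn. The procedure was also run on simulated counts, drawn with the same dispersion for every gene and with no library apart. That run therefore does not bear on genes as widely spread as the Mup genes. Intervals are 95% exact Poisson intervals on the lower group. They treat both mates of a pair as separate counts, so they may be too narrow. Read-length stretches and promoters were searched with Python 3.11.15.

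Named genes are the members, the other Mup genes, Gcgr, genes that passed from the lists described, the 5 genes most like and most unlike the members, and the neighbours of the cluster. Members and gene lists were chosen with earlier results of these data known.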

Additional observations from a re-analysis of the deposited data

Results flagged for a closer look

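Among 27 groups of 4 libraries examined for the members and Gcgr, 8 held a library far from the other 3, measured as log2 CPM, where chance alone gives about 1 in 20. Of these, 4 were male LKO replicate 1, the lowest of its group for Mup3 (7.65, next lowest 12.67), Mup7 (-4.42, next 7.07), Mup20 (7.86, next 13.31) and Mup21 (2.72, next 7.65). Mup3 in male CRE- replicate 3 stood at 11.34 (next 11.82) and Gcgr in the same library at 6.99 (next 7.57). Mup12 in female CRE- replicate 1 stood at -3.46 (next 0.40). Mup7 in female CRE- replicate 4 stood at -4.42 (next -3.55), which is 0 reads against 2.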

How the results depend on the processing

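Over 670 values of single genes, 664 kept their direction and 621 also kept their side of the threshold, while 14 gained a call, 29 lost one and 6 reversed. From male to female CRE-, Mup17 (-0.05) became 0.82 by limma-voom, 1.30 without male CRE- replicate 2 and 0.29 without female CRE- replicate 1, ranging from -0.37 to 1.30 without a library. Between male LKO and CRE-, Mup12 (-0.08) became 0.85, 0.33 and 0.15 without male CRE- replicate 2, male LKO replicate 1 and male LKO replicate 3, ranging from -0.51 to 0.85.

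Counts of all genes called that moved, in the order male LKO, female LKO, interaction, CRE- sexes and LKO sexes (76, 710, 0, 154 and 189): 338, 1768, 372, 501 and 1055 by DESeq2, and 148, 1976, 29, 329 and 953 by limma-voom. Without the filter the interaction count was 12, and with female libraries alone the female count was 119. Members called (0, 1, 0, 2 and 5) were 0, 2, 1, 3 and 6 by DESeq2 and 3 between CRE- sexes without the filter, and limma-voom gave 0 in females and 3 between LKO sexes. Leaving out single libraries gave 26 to 111 genes and 0 to 0 members for male LKO, 87 to 1310 and 0 to 2 for female LKO, 0 to 14 and 0 to 0 for the interaction, 68 to 213 and 1 to 3 for CRE- sexes, and 49 to 684 and 3 to 6 for LKO sexes. Fewer libraries were then fitted; otherwise the cause was not tested.

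Replicate numbers were not taken as pairs, as the labels name no shared origin and not every pair correlated. Deviations of same-numbered LKO and CRE- libraries correlated at 0.170, 0.170, 0.144 and -0.013 in males and 0.173, 0.105, 0.117 and 0.028 in females, and not every library correlated best with its own number. With the replicate block, members called became 2 in females (with Mup12) and 1 between CRE- sexes (without Mup7), and genes called 2 in the interaction and 422 between LKO sexes, against 67 and 1012 in males and females. Block columns sum to 0 within each sex. They were recoded so after results of an earlier coding, which compared replicate 1 alone between sexes, had been seen.

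Reads shared between near-identical copies were not counted, which limits Mup7, Mup12 and Mup17 and the other central copies. In females, Mup7 and Mup12 rest on few reads. With 4 libraries a group and 1 male LKO library apart from the rest, differences that missed the threshold are not shown to be absent.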
